A study of Mus musculus with 8 samples.

Results

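The proteasome genes of the mouse ventricle were compared between mice with myocardial infarction (MI) and sham-operated mice. Members were the probes whose RefSeq accession maps to a symbol made of Psma, Psmb, Psmc, Psmd or Psme followed by a digit, without Psmb8 and Psmb9, and each gene was read from its brightest probe that stood well above background on 4 or more of the 8 arrays. The rule found 43 genes on 53 probes, among 20145 genes with a symbol on the array. Of these, 41 genes were retained: 15 of 17 core particle genes, all 20 regulatory particle genes, all 4 activator genes, and 2 genes counted in no particle. These were Psmc3ip and Psme3ip1, whose symbols meet the rule but whose products are not subunits. The 20 regulatory genes include 3 assembly chaperones, Psmd5, Psmd9 and Psmd10, rather than subunits of the finished particle. Regulatory counts and medians below include them. The 2 genes not retained were Psma8, a testis form of an alpha subunit, well above background on 1 array, and Psmb11, the catalytic subunit of the thymus, well above background on 0 arrays. All 41 retained members were well above background on all 8 arrays, and none was saturated.

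The proteasome is the protease complex that degrades proteins tagged with ubiquitin. Its core particle is a barrel of outer alpha rings, built from Psma products, and inner beta rings, built from Psmb products, which carry the catalytic sites. The regulatory particle caps the barrel: ATPases (Psmc) and other base subunits unfold the substrate, and lid subunits (Psmd) remove its ubiquitin chain. Other caps, the Psme products, open the barrel without ATP. In the heart the complex removes damaged and misfolded proteins and takes part in the turnover of sarcomere proteins, and its subunit genes are known to rise together when its activity is blocked.

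RNA came from the ventricles of 8 adult male C57BL\6 mice killed 24 h after surgery. The 4 MI mice had a permanent ligature around the anterior interventricular artery, and the 4 sham-operated mice underwent thoracotomy and the rest of the operation without the ligature. No group carried a transgene, and all mice shared anesthesia, ventilation and opening of the chest. Per the paper, all 8 also had an FDG-PET scan of the heart 24 h after surgery, under isoflurane. For the scan they received FDG and the drug Acipimox, which raises FDG uptake by the heart. Each mouse was measured on its own 1-colour array, so that n = 4 per group throughout, and the whole ventricle was extracted, so that infarcted and surviving muscle are mixed. In such bulk tissue, fewer cells of a type and less RNA per cell cannot be told apart.

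The 8 arrays lay on 1 slide in 2 rows, each with 2 MI and 2 sham-operated mice, and the share of spots well above background was 58.6% to 66.4%. Values are log2 intensities normalised on the spike-in RNA that was added before labeling. This normalisation adds constants of 166 to 257 to a signal before the log. For signals far above these constants a difference of 1 on this scale is 2-fold. For dimmer probes the constants damp the differences, so that their folds read too small. All 8 cardiomyocyte markers of the list used here were retained. None of them was called by limma with this normalisation, while Pln, a regulator of the calcium pump, was called after scaling each array to its 75th percentile (-0.68, adjusted p = 0.00741). Their summed level, taken off the log2 scale, was 1743860 to 2562580 with MI against 1885990 to 2553580 with sham operation. Neutrophil markers went with the groups: 5 of 7 retained markers were called, all higher in MI mice, S100a8 by 2.99 on the log2 scale, and the summed level of the list was 253225 to 369408 with MI against 79488 to 121833 with sham operation. Of the 7 retained monocyte and macrophage markers, Cd14 and Ccr2 were called higher, Ccr2 in 5 of 8 fits with 1 mouse left out, and the summed level was 39597 to 58015 with MI against 33518 to 60427 with sham operation. Ly6g and Cd68 had no retained probe here, although the paper reports a higher CD68 in MI mice from these arrays. Of the other lists, 0 of 3 retained T and NK cell, 0 of 4 B cell, 0 of 6 fibroblast and 0 of 5 endothelial markers were called by limma with this normalisation, and 1 of 4 smooth muscle markers, Acta2, was higher in MI mice, by 1.45 on the log2 scale (adjusted p = 0.0240), a call that held in 3 of 8 fits with 1 mouse left out. The B cell markers were dim, with 1 of 4 well above background on all 8 arrays. After 75th percentile scaling 0 of 4 B cell markers were called by limma, but all 4 had the higher mean in MI mice. Of these, 3 had an unadjusted p under 0.05 in limma, beside 32.1% of all probes. On the authors' values Cd79b was called higher (0.73, adjusted p = 0.0369, limma). After 75th percentile scaling the endothelial marker Pecam1 was called higher (0.54, adjusted p = 0.0309, limma). In that scaling 0 of 6 fibroblast markers were called, but all 6 had an unadjusted p under 0.05 in limma, beside 32.1% of all probes. Of these, 5 had the lower mean in MI mice. With spike-in normalisation the summed fibroblast level was 45531 to 111828 with MI against 83928 to 136416 with sham operation. The part of these cells in the proteasome values was not tested.

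No member was called: 0 of 41 had an adjusted p under 0.05 in limma, at any fold. Of the 34038 probes tested 3.73% were called (3.38% higher and 0.355% lower in MI mice). Beside that share, 0 of 41 does not set the complex apart from other genes. The same comparison without moderation of the variances also called 0 members, beside 1.52% of all probes. At an unadjusted p under 0.05 in limma there were 3 members, Psmd10, Psmd11 and Psmc4, beside 15.4% of all probes. After 75th percentile scaling 13 members had an unadjusted p under 0.05, beside 32.1% of all probes. With spike-in normalisation the 95% interval of the difference lay within 2-fold in either direction for 40 of 41 members (95.2% of all probes). It lay within 1.5-fold for 34 of 41 (77.1% of all probes). The interval of Psmd11, which reached 1.03 on the log2 scale, was the exception at 2-fold. After 75th percentile scaling the exceptions were Psmd10 (-1.19 to -0.41) and Psmc3ip (-1.11 to -0.22), while Psmd11 (0.25 to 0.83) stayed within 2-fold.

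**Figure D1:**
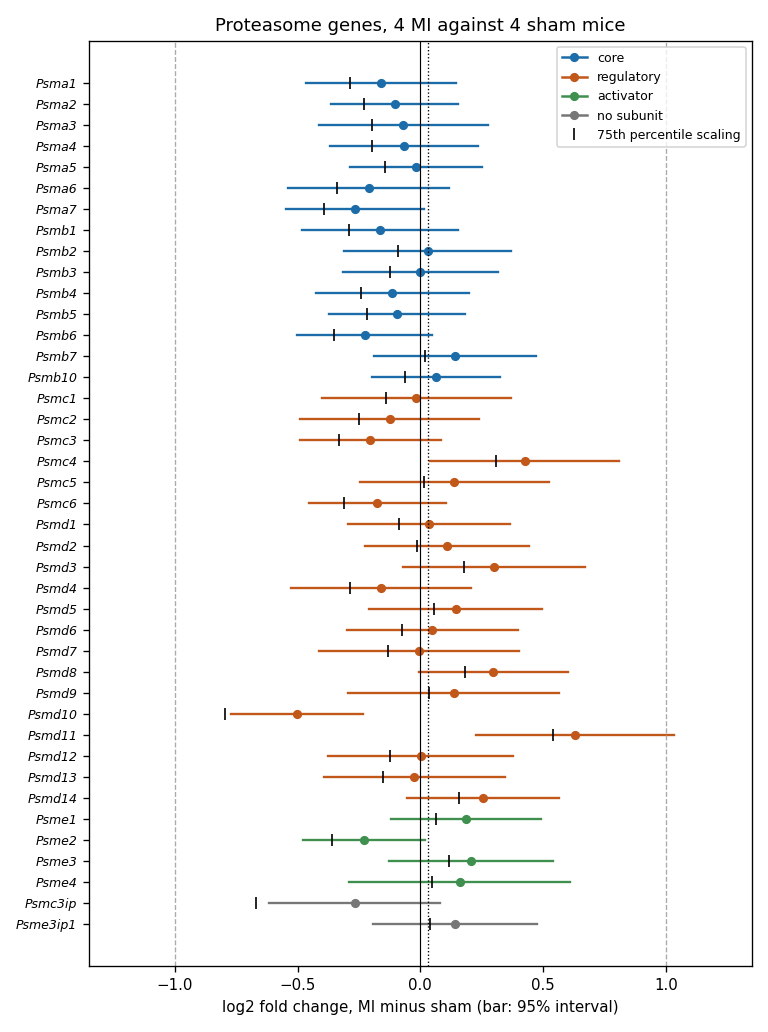
Log2 fold change (MI minus sham, x axis) of each of the 41 retained proteasome genes (y axis), with 4 mice per group; points are spike-in normalised values, coloured by particle, bars are 95% intervals from limma, short black ticks are the values after 75th percentile scaling, the dotted line is the median of all probes and the dashed lines mark 2-fold. Most intervals cross 0, the 7 alpha ring genes all lie left of 0, and Psmd10 (-0.50) and Psmd11 (0.63) lie farthest out.

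Core and regulatory particles were taken apart. The median log2 fold change was -0.09 over the 15 core members, of which 4 had the higher mean in MI mice, and 0.04 over the 20 regulatory members, of which 12 had the higher mean, while the median over all probes was 0.03. After scaling each array to its 75th percentile the medians were -0.22 for core and -0.08 for regulatory members, with -0.01 over all probes, and 1 core and 8 regulatory members had the higher mean in MI mice, so that the sign of the regulatory median depended on the scaling. Without MI replicate 2 the core median was 0.01, and without sham replicate 2 the regulatory median was -0.06.

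The per-mouse medians show how wide this spread was. Against the sham mean of each gene, the core median was 0.09, -0.36, -0.04 and -0.09 in MI replicates 1 to 4, and -0.12, -0.15, 0.19 and 0.06 in sham replicates 1 to 4. The regulatory median was 0.27, -0.28, 0.17 and 0.08 in the MI mice and 0.08, -0.35, 0.18 and 0.08 in the sham-operated mice. MI replicate 2 and sham replicate 2 were low for both particles, and the groups overlapped for both. The median over all probes in the same mice was also lowest in these 2 mice, at -0.10 and -0.12.

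Within a mouse, the core median minus the regulatory median was -0.18, -0.08, -0.21 and -0.17 on the log2 scale in the 4 MI mice. In the sham-operated mice it was -0.20, 0.20, 0.00 and -0.02. The difference was negative in every MI mouse, and sham replicate 1 lay among them, so the groups overlapped here too.

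**Figure D2:**
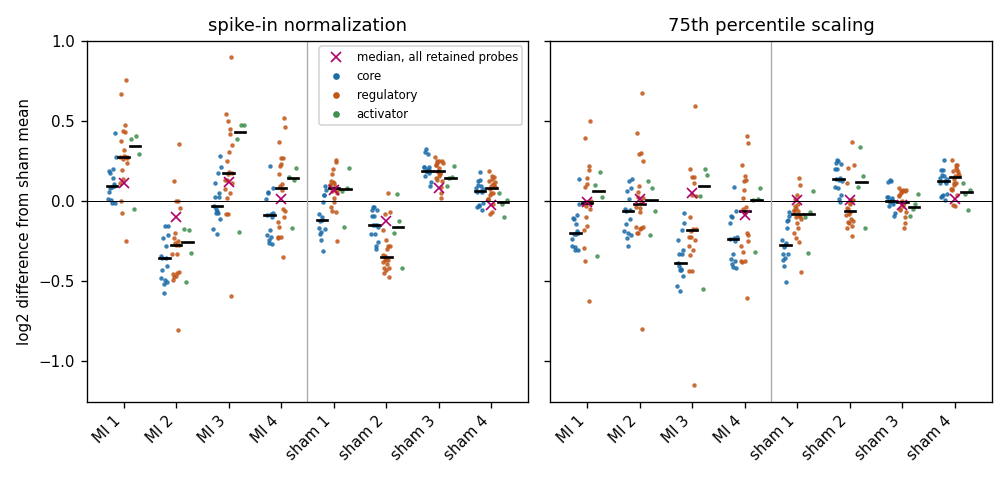
Each point is 1 proteasome gene in 1 mouse, as its log2 difference from the mean of the 4 sham-operated mice (y axis), for spike-in normalisation (left) and 75th percentile scaling (right); black bars are medians over the genes of a particle and crosses are the median of all retained probes. With spike-in normalisation MI replicate 2 and sham replicate 2 have regulatory medians of -0.28 and -0.35, and the groups overlap on both scales.

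In the outer ring of the core, all 7 alpha genes had the lower mean in MI mice under both scalings with all mice kept, and 0 of 7 were called. With spike-in normalisation and 1 mouse left out, Psma3 reached 0.03, Psma4 0.05 and Psma5 0.06, so the shared sign depended on single mice. The 7 genes were read on the same arrays and are no replicates of each other. Their differences ranged from -0.27 to -0.02 (median -0.10). Psma7 was the farthest from 0 of the core. Its log2 values were 15.21, 14.65, 15.02 and 14.96 in MI replicates 1 to 4 and 15.11, 15.18, 15.41 and 15.20 in sham replicates 1 to 4. MI replicate 1 reached the sham range, so the groups overlapped. The difference was -0.27 ± 0.12 (SE, adjusted p = 0.356, limma), and after 75th percentile scaling it was -0.39 (adjusted p = 0.0753) with groups that did not overlap. Psma6 measured 14.35, 13.82, 14.27 and 14.10 in MI mice and 14.15, 14.25, 14.67 and 14.31 in sham-operated mice, a difference of -0.21 ± 0.14 (SE, adjusted p = 0.601, limma). Psma1, read here as one marker of the core, measured 14.26, 13.77, 14.08 and 14.26 against 14.17, 14.04, 14.46 and 14.33. Its difference was -0.16 ± 0.13 (SE, adjusted p = 0.706, limma), and both genes overlapped between the groups.

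The beta ring holds the 3 constitutive catalytic subunits. Psmb6, the caspase-like one, measured 15.92, 15.42, 15.82 and 15.66 in MI mice and 15.76, 15.87, 16.12 and 15.98 in sham-operated mice, with a difference of -0.23 ± 0.12 (SE, adjusted p = 0.446, limma). Psmb5, the chymotrypsin-like one and the target of proteasome inhibitors such as bortezomib, measured 16.41, 15.91, 16.37 and 16.22 against 16.36, 16.17, 16.49 and 16.26, and its groups overlapped. Its difference was -0.09 ± 0.12 (SE, adjusted p = 0.851, limma). Psmb7, the trypsin-like one, measured 14.41, 13.77, 14.26 and 14.07 against 14.08, 13.73, 14.08 and 14.06. Its difference was 0.14 ± 0.15 (SE, adjusted p = 0.788, limma), with sham replicate 2 standing below the other sham-operated mice. The 3 catalytic genes overlapped between the groups. With spike-in normalisation none had an interval that reached 1.5-fold. Psmb6 was bounded by -0.50 and 0.05, Psmb5 by -0.37 and 0.18, and Psmb7 by -0.19 and 0.47 on the log2 scale. After 75th percentile scaling the interval of Psmb6 reached -0.67, beyond 1.5-fold. Over the 8 beta genes the median was -0.05 and 4 had the higher mean in MI mice. Psmb1, a beta subunit without catalytic activity, was at -0.16 ± 0.14 (SE, adjusted p = 0.707, limma), from 13.96, 13.39, 13.81 and 13.70 against 13.78, 13.67, 14.06 and 14.00.

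When interferon is present, the catalytic subunits are replaced by inducible ones in newly built particles. Psmb10, which takes the place of Psmb7, measured 14.19, 13.76, 14.13 and 13.84 in MI mice and 13.98, 13.75, 14.03 and 13.90 in sham-operated mice, with a difference of 0.06 ± 0.11 (SE, adjusted p = 0.907, limma). Its sign turned after 75th percentile scaling (-0.06). Psmb10 minus Psmb7 within each array, which the scaling of the array touches little, was -0.15 ± 0.10 (SD) in MI mice against -0.07 ± 0.08 (SD) in the sham group (exact two-sided permutation p = 0.257, n = 4 per group). Adjusted over the 3 pairs compared, p was 0.386. The other inducible subunits, which the rule leaves out, stood on opposite sides of 0 and were not called: Psmb8 was at 0.21 (adjusted p = 0.317, limma) and Psmb9 at -0.21 (adjusted p = 0.348, limma). With the peptide transporters Tap1 and Tap2, tapasin (Tapbp) and B2m, these were 6 genes. With spike-in normalisation 0 of these 6 genes were called in limma, and 3 had an unadjusted p under 0.05. After 75th percentile scaling Tap1 was called, at 1.03 (adjusted p = 0.00725, limma). In that scaling its groups did not overlap, and it was called in all 8 fits with 1 mouse left out. Tap1 was also called on the authors' values, at 1.01 (adjusted p = 0.0116, limma). With spike-in normalisation it was at 0.33 (adjusted p = 0.147, limma). Its mean processed signal was 128 in the MI and 55.6 in the sham group. That is below the constants that the spike-in normalisation adds, which damp its fold.

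The genes counted as regulatory held the members farthest from 0 in both directions, Psmd11 and the assembly chaperone Psmd10. With the assembly chaperones set aside, the lowest regulatory member was Psmc3 at -0.20, nearer to 0 than Psma7 of the core at -0.27. Psmd11, on chromosome 11 (chr11:80428615-80473248, GRCm38.p6), encodes the lid subunit that clamps the regulatory cap to the core. It measured 12.41, 12.01, 12.56 and 12.18 in MI replicates 1 to 4 and 11.90, 11.18, 11.75 and 11.81 in sham replicates 1 to 4. Every MI mouse was above every sham-operated mouse, as for 6.58% of all probes, and sham replicate 2 was the lowest. The difference was 0.63 ± 0.18 (SE), that is 1.55-fold with a 95% interval of 1.17 to 2.05, and the adjusted p of limma was 0.107. It was called after 75th percentile scaling, at 0.54 (adjusted p = 0.0206, limma), under which 17.5% of all probes were called (8.99% higher and 8.48% lower in MI mice). In that scaling it was called in 4 of the 8 fits that left out 1 mouse each.

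Psmd10, on the X chromosome (chrX:140948425-140956711, GRCm38.p6), encodes gankyrin, a chaperone that holds the ATPase Psmc4 during assembly of the base and is not part of the finished particle. It measured 9.76, 9.20, 9.41 and 9.66 in MI mice and 9.94, 10.06, 10.06 and 9.99 in sham-operated mice. Every MI mouse was below every sham-operated mouse, as for 2.38% of all probes, and the MI mice spread more (SD 0.25 against 0.06). The difference was -0.50 ± 0.12 (SE), 0.706-fold with a 95% interval of 0.585 to 0.851, and the adjusted p of limma was 0.0595. It was called without MI replicate 1 (-0.59) and without MI replicate 2 (-0.40). After 75th percentile scaling it was called at -0.80 (adjusted p = 0.0155, limma), and in all 8 fits with 1 mouse left out. Its mean processed signal was 558 in the MI and 783 in the sham group. That is not far above the constants of 166 to 257 that the spike-in normalisation adds, which damp its fold. The second retained probe of Psmd10 was at -0.17 (adjusted p = 0.412, limma), and at -0.41 after 75th percentile scaling (adjusted p = 0.0543, limma).

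Psmc4 (chr7:28041702-28050092, GRCm38.p6), the ATPase that gankyrin binds, measured 13.59, 13.04, 13.46 and 13.29 in MI mice and 13.05, 12.47, 13.06 and 13.11 in sham-operated mice. MI replicate 2 lay inside the sham range, and sham replicate 2 lay well below the other 3. The difference was 0.42 ± 0.17 (SE, adjusted p = 0.264, limma), with a 95% interval of 0.04 to 0.81. Of the other 5 ATPases 1 had the higher mean in MI mice, so that the 6 ATPase genes had a median of -0.07.

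The lid genes lay mostly on the higher side with spike-in normalisation, where 6 of 8 had the higher mean in MI mice (median 0.15), and on both sides after 75th percentile scaling, where 4 of 8 had it (median 0.04). Psmd3, a scaffold of the lid, measured 15.05, 14.61, 15.11 and 14.88 in MI mice and 14.81, 14.18, 14.80 and 14.66 in sham-operated mice, with a difference of 0.30 ± 0.16 (SE, adjusted p = 0.458, limma). Psmd8, whose product joins the lid last, measured 12.91, 12.44, 12.89 and 12.71 against 12.50, 12.16, 12.61 and 12.49, with a difference of 0.30 ± 0.13 (SE, adjusted p = 0.338, limma). In both genes MI replicate 2 was the MI mouse inside the sham range and sham replicate 2 was the lowest of all. Psmd14, the lid protease that cuts off the ubiquitin chain, was at 0.26 (adjusted p = 0.444, limma). Psmd1, the large scaffold of the base, measured 14.28, 13.82, 14.21 and 14.18 against 14.14, 13.74, 14.34 and 14.12. Its difference was 0.04 ± 0.14 (SE, adjusted p = 0.962, limma) and turned to -0.09 after 75th percentile scaling. Of the 3 assembly chaperones among the Psmd genes, Psmd5 and Psmd9 were at 0.14 each on their brightest probes. The second probe of Psmd9 was at -0.22 (SE 0.12), and at -0.46 after 75th percentile scaling (adjusted p = 0.0532, limma), so that the probes of this gene lay on opposite sides of 0.

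**Figure D3:**
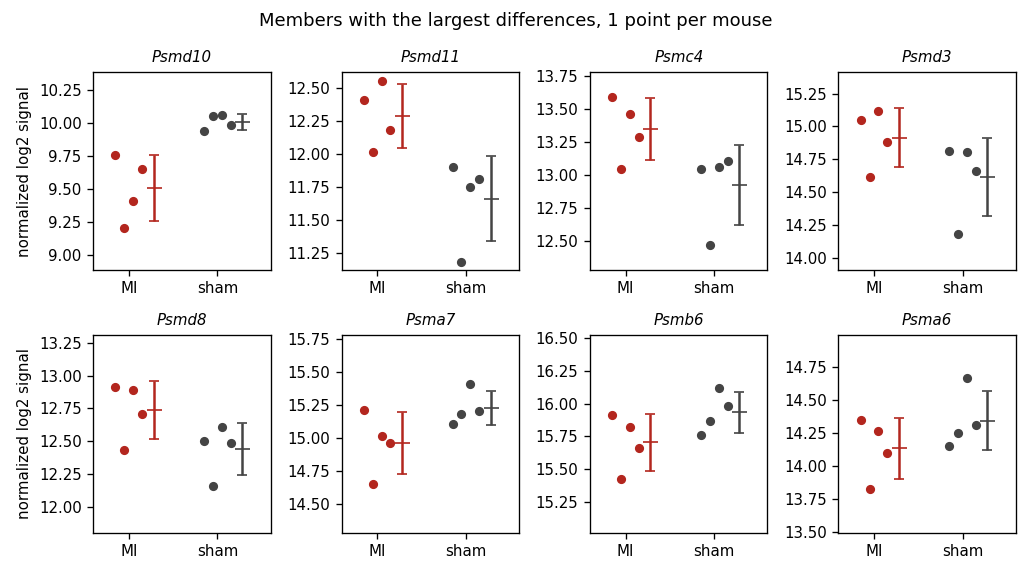
Normalised log2 signal (y axis, its range set for each gene) of the 5 regulatory and the first 3 core members by size of difference, with 1 point per mouse in the order of replicates 1 to 4 and bars for mean ± SD of 4 mice. Psmd10 and Psmd11 are the genes whose groups do not overlap, and in the Psmc4 panel sham replicate 2 lies at 12.47, apart from the other sham-operated mice.

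The activators had a median of 0.17, with 3 of 4 higher in mean in MI mice, and 0 of 4 were called. Psme1 and Psme2 encode the interferon-inducible partners of one cytoplasmic ring. Psme1 measured 14.52, 13.96, 14.52 and 14.28 in MI mice and 14.20, 13.93, 14.23 and 14.18 in sham-operated mice, a difference of 0.19 ± 0.13 (SE, adjusted p = 0.632, limma). Psme2 measured 14.46, 14.01, 14.32 and 14.34 against 14.35, 14.55, 14.65 and 14.49, a difference of -0.23 ± 0.11 (SE, adjusted p = 0.370, limma), with MI replicate 1 inside the sham range. The partners thus stood on opposite sides of 0 without either being called, and Psme2 is uncertain because the near-identical copy Psme2b can share its probe.

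Psme3, the nuclear activator, measured 10.69, 10.10, 10.76 and 10.42 in MI mice and 10.37, 10.16, 10.44 and 10.19 in sham-operated mice, a difference of 0.21 ± 0.15 (SE, adjusted p = 0.622, limma). Psme4, the large activator that works in DNA repair and in the breakdown of acetylated histones, measured 11.45, 10.83, 11.64 and 11.37 against 11.36, 10.74, 11.38 and 11.17, a difference of 0.16 ± 0.20 (SE, adjusted p = 0.838, limma). Both genes overlapped between the groups, with MI replicate 2 the lowest of the MI mice. Psme2 minus Psme3 within each array was 3.76, 3.90, 3.56 and 3.92 in the MI mice and 3.98, 4.39, 4.22 and 4.31 in the sham-operated mice. Every MI mouse was below every sham-operated mouse. The difference between the groups was -0.44 ± 0.12 (SE), the exact two-sided permutation p was 0.0286, the smallest that 4 against 4 mice allow, and adjusted over the 3 pairs it was 0.0857. Psme4 minus Psme1 differed by -0.03 ± 0.10 (SE) between the groups (exact two-sided permutation p = 0.800, adjusted 0.800, n = 4 per group), and its sign turned to 0.08 when the probes of a gene were averaged.

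**Figure D4:**
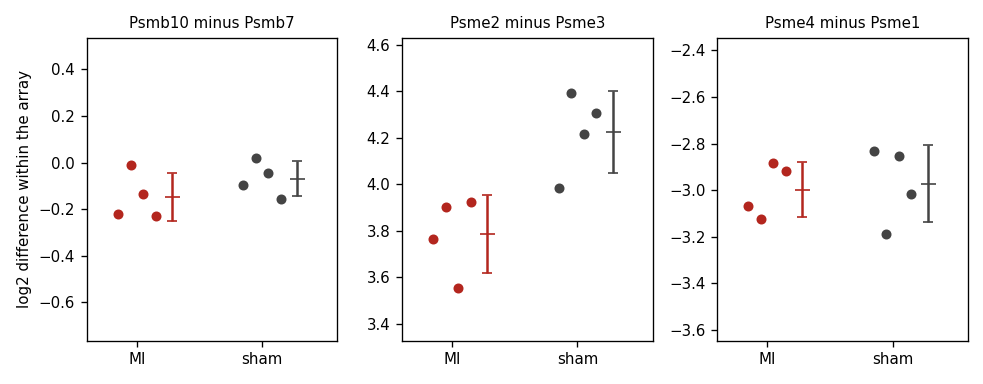
Within-array log2 differences (y axis, its range set for each pair) of the 3 pairs of alternative forms, with 1 point per mouse and bars for mean ± SD of 4 mice. For Psme2 minus Psme3 the MI mice lie between 3.56 and 3.92 and the sham-operated mice between 3.98 and 4.39; the groups of the other pairs overlap.

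The 2 genes that share the symbol pattern but were counted in no particle were Psmc3ip, a recombination cofactor, and Psme3ip1, which binds the nuclear activator. Psmc3ip was at -0.27 (adjusted p = 0.486, limma) and Psme3ip1 at 0.14 (adjusted p = 0.792, limma). Psmc3ip was called after 75th percentile scaling, at -0.67 (adjusted p = 0.0467, limma), which with Psmd10 and Psmd11 made 3 of 41 members called, beside the 17.5% of all probes. In that scaling the groups did not overlap for 2 members higher and 6 lower in MI mice, beside 11.4% and 12% of all probes. Of the 10 members with a second retained probe, 3 had probes of opposite sign, Psmb5, Psmc1 and Psmd9, and 0 of these second probes were called by limma.

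Of 43 other genes of the ubiquitin and proteasome pathway, all 43 retained, 1 was called higher and 1 lower by limma, beside the 3.73% over all probes. After 75th percentile scaling 3 were called higher and 5 lower, beside 17.5% of all probes. Fbxo32, atrogin-1, the muscle ubiquitin ligase that marks proteins for breakdown in atrophy, measured 10.19, 9.48, 10.04 and 10.28 in MI mice and 10.84, 10.97, 11.19 and 11.38 in sham-operated mice. It fell by 1.1 on the log2 scale (SE 0.19, adjusted p = 0.0158, limma), with no overlap, and was called in 6 of 8 fits with 1 mouse left out, the exceptions being those without MI replicate 3 and without sham replicate 4 (adjusted p up to 0.0546, limma). Trim63, the other muscle ligase of the list, was at -0.20 (adjusted p = 0.800, limma). Zfand2a, a zinc finger protein that binds the proteasome under arsenite stress, measured 11.82, 11.71, 12.17 and 11.76 against 11.41, 10.92, 11.40 and 11.23. It rose by 0.63 on the log2 scale (SE 0.14, adjusted p = 0.0461, limma), again with no overlap. That call held in 1 of 8 fits with 1 mouse left out, the one without MI replicate 2 (adjusted p up to 0.134 in the others, limma), and on the authors' values the adjusted p was 0.0610 (limma).

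With spike-in normalisation the other pathway groups held no called gene beside Zfand2a and Fbxo32. After 75th percentile scaling the ubiquitin receptor Ubqln2 (-0.48, adjusted p = 0.0350, limma), the proteasome-binding Zfand5 (-0.47, adjusted p = 0.0498, limma) and the ligase Mdm2 (0.38, adjusted p = 0.0292, limma) were called as well. The 4 ubiquitin genes had a median of 0.02, with Ubb at 0.30 (adjusted p = 0.350, limma). The 7 genes for ubiquitin activation and shuttle receptors had a median of 0.22, with Uba1, the main activating enzyme, at 0.51 (adjusted p = 0.315, limma) and 3 genes at an unadjusted p under 0.05. The 4 deubiquitinases and ligases bound to the proteasome had a median of -0.06, and the 7 genes of the segregase p97 (Vcp) and its cofactors, Zfand2a among them, 0.05.

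Of the 10 genes for assembly factors and further subunits, 0 were called by limma and 2 had an unadjusted p under 0.05. After 75th percentile scaling 2 were called, both lower: Psmg1 at -0.75 (adjusted p = 0.00501, limma) and Psmg2 at -0.45 (adjusted p = 0.0305, limma), partners in the chaperone that starts the alpha ring. With spike-in normalisation they were at -0.59 and -0.31, and Psmg1 did not overlap between the groups. Pomp, the chaperone that closes the core barrel, was at -0.20 (adjusted p = 0.595, limma), and Adrm1, the ubiquitin receptor of the base, at 0.59 (adjusted p = 0.254, limma). The 7 genes for transcription factors of subunit genes and their processing had a median of 0.31 with 6 higher in mean and 0 called by limma (3 at an unadjusted p under 0.05). Among them Nfe2l1, which drives subunit genes when proteasome activity is short, was at 0.29 (adjusted p = 0.543, limma) and Nfe2l2, its relative in the antioxidant response, at 0.31 (adjusted p = 0.508, limma), while their partner Mafk was at 0.60 and was called after 75th percentile scaling (0.54, adjusted p = 0.0296, limma).

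The letters around the start sites of the members were read for the motifs of these factors, to show where each motif lies. RefSeq windows of GRCm38.p6, from 250 bases before to 50 after the start, matched 35 of the 41 retained members. The core of the antioxidant response element (TGACNNNGC, the site of Nfe2l1 and Nfe2l2), searched on both strands, was in the windows of 6 members (17.1%): Psmb5, Psmb6, Psmc6, Psmd9, Psmd12 and Psme4. Counted per gene in the same way, it was in 14% of the 27025 symbols with a window. The CCAAT box was in 14 members (40%, against 41.1% of symbols), the heat shock element GAANNTTC in 1 (2.86%, against 9.04%) and the interferon-stimulated response element in 4 (11.4%, against 3.99%). Over the 32851 single windows these motifs were in 12.4%, 37.4%, 7.86% and 3.44%, since a gene can have more than 1 window and so more chances of a match. The windows below show, from 5′ to 3′ on the strand of the gene and with the motif in capitals, the antioxidant element 47 bases before the start of Psmb5, that of Psmd9 31 bases before the start, the interferon element of Psmd9, and a CCAAT box, in reverse, of Psmd10.
Psmb5 (chr14:54618009-54618067, minus strand): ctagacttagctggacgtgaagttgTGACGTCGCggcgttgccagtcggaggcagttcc
Psmd9 (chr5:123228134-123228189, plus strand): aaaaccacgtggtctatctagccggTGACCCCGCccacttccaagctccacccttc
Psmd9 (chr5:123228006-123228065, plus strand): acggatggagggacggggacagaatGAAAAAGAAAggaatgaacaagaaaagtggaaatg
Psmd10 (chrX:140956729-140956783, minus strand): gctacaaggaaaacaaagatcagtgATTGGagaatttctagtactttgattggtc
The Psmd10 window also holds, near its end and left in lower case, another reversed CCAAT box, 24 bases before the start. A match is a run of letters in the genome and not a site shown to be bound in these hearts. Psmb5 and Psmd9, which carry the antioxidant element, were at -0.09 and 0.14, and neither was called.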

How the data were processed

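Per the file headers, the deposited intensity values were made by Feature Extraction 11.0.1.1 and are background-subtracted and detrended within each array. The authors deposited log2 values made from them with limma and vsn on the spike-in probes, and missing where not well above background; setting them against the scanner signals gave their log2 scale, direction and additive constants (3.16 to 19.6). Neither source states centring.

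Here the vsn model was fitted to 234 spots of 7 spike-in probes by an own implementation (constants 166 to 257). On data made from the same model with known answers, it recovered the array scales to within 0.012 on the log2 scale. That check cannot show that these constants suit the real arrays. They are far larger than the authors' constants of 3.16 to 19.6, and which are nearer the truth was not tested. Flagged outlier spots were dropped, the spots of each probe were averaged, and 34038 probes well above background on 4 or more arrays were kept. MI and sham were compared in limma 3.58.1 (R 4.3.3) in place of the significance analysis of microarrays of the methods, with Benjamini-Hochberg adjustment over all retained probes and a call at an adjusted p under 0.05. Python 3.11.15, numpy 2.4.6, scipy 1.17.1, pandas 2.3.3 and matplotlib 3.10.9 did the rest. Symbols came from RefSeq accessions (GRCm38.p6).

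The 18 members given with values in every mouse were Psma1 and Psmd1, the 5 core and the 5 regulatory members with the largest absolute difference, Psmb5, Psmb6, Psmb7, Psmb10 and Psme1 to Psme4; pathway genes were named when called and over 1.5-fold, and all further genes named were picked with their values in view. The members and lists were chosen with earlier results of these data known. Alternatives were other normalizations, filters, blocks and each mouse left out; 75th percentile scaling combined with left-out mice or blocks was chosen after seeing the data. Labels give separate mice as replicates. The number of arrays limits the precision.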

Additional observations from a re-analysis of the deposited data

Results flagged for a closer look

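Of 48 groups of 4 mice checked for a mouse standing apart from the other 3, 3 were flagged, and chance flags about 1 in 20 groups. All were sham replicate 2 on the low side. Its log2 signal of Psmc4 was 12.47 while the other sham-operated mice lay between 13.05 and 13.11. For Psmb7 it was 13.73, with the others between 14.06 and 14.08, and for Psme1 it was 13.93, with the others between 14.18 and 14.23. The median over all probes was -0.12 in this mouse with spike-in normalisation, the lowest of the 8, and 0.01 after 75th percentile scaling.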

How the results depend on the processing

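Core members called were 0 with spike-in normalisation, 1 after quantile normalization, 1 with normexp background correction together with 75th percentile scaling, and 0 to 3 when 1 mouse was left out, the 3 after 75th percentile scaling without sham replicate 1. Regulatory members called were 0 with spike-in normalisation, 2 after 75th percentile scaling (2 also with the slide row as a block), 3 after quantile normalization, 2 with normexp together with that scaling, and 0 to 4 when 1 mouse was left out. Those left-out fits gave 0 or 1 with spike-in normalisation (1 without MI replicate 1 or 2) and 1 to 4 after 75th percentile scaling (4 without sham replicate 1). Same-numbered mice deviated together with correlations of 0.28, 0.36, 0.087 and 0.0011 for replicates 1 to 4. These values cannot decide whether the replicate numbers pair the mice, and the labels name no pairs. With the replicate block 4 regulatory members were called, Psmd11, Psmc4, Psmd3 and Psmd8, and 1 with the block after 75th percentile scaling, while calls over all probes went from 1271 to 4935. Calls over all probes were 5947 after 75th percentile scaling, 6173 after quantile normalization, 6069 with normexp together with that scaling, 2008 with the authors' values and 518 without moderation. The median of all probes was 0.033 with spike-in normalisation, -0.014 after 75th percentile scaling and -0.10 when normexp was added to it. The core median ranged from -0.22 to 0.011 and the regulatory median from -0.082 to 0.16 over the 17 alternatives run for them, which leave out the combinations of 75th percentile scaling with left-out mice or blocks.

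Psme2 minus Psme3 lay between -0.52 and -0.36 when 1 mouse was left out, with an exact permutation p of 0.0571 without any one MI mouse and 0.0286 without any one sham-operated mouse. Psme4 minus Psme1 turned to 0.082 with the mean of a gene's probes and ranged from -0.098 to 0.021 when 1 mouse was left out. Psmd1 was at -0.089 after 75th percentile scaling, -0.015 after quantile normalization and -0.047 with normexp together with 75th percentile scaling, and Psmb10 at -0.062, -0.0033 and -0.015. When 1 mouse was left out, with either scaling, Psmd1 ranged from -0.13 to 0.14, Psmb10 from -0.13 to 0.14, Psmb5 from -0.26 to 0.011, Psmb7 from -0.022 to 0.26 and Psme4 from -0.0074 to 0.32. Of the 216 values of the 18 named members under settings that kept all mice, 197 stayed on their side of 0 and of the threshold, 13 newly passed it and 6 turned sign. The cause was not tested. The additive constants of the fit limit what dim probes can show.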
